A study of Drosophila melanogaster and Drosophila simulans with 11 samples.

Results

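The MOF-bound regions of the X-chromosome described here are those that lie far from the sites where MSL1 stays in *roX* mutants. MOF-bound regions were defined in wild type salivary glands, and a region was kept when the nearest MSL1-bound region of *roX* mutants on X was more than 5 kb away. The members were thus chosen by the wild type MOF values and the *roX* mutant MSL1 values. Of 438 MOF regions on X, 253 (57.8%) met this rule and are called far regions. The other 185 lay within 5 kb of an MSL1 region and are called near regions. In the whole genome, 448 MOF regions were found with the same procedure.

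The male-specific lethal (MSL) complex increases the transcriptional output of the single male X-chromosome of *Drosophila*. MSL1 is its scaffold protein, MSL2 is the male-specific subunit that forms the core with MSL1, and MOF is the histone acetyltransferase that acetylates lysine 16 of histone H4. The long non-coding RNAs *roX1* and *roX2* are part of the complex and act redundantly. The complex is first recruited to a limited number of high affinity sites (HAS) on X and is found from there along active genes, where it favours gene bodies and their 3′ ends.

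ChIP-seq was done on chromatin of dissected salivary glands from larvae of the third instar, with 125 glands pooled per sample. In *roX* mutants, males that carried the *roX1* allele *roX1[ex6]*, the deletion *Df(1)roX2[52]*, the markers *y* and *w* and the transgene *P[w+ 4Δ4.3]*, the ChIP libraries were made with antibodies against MSL1, MSL2 and MOF. In wild type (Oregon R) males, libraries of MSL2 and MOF were analysed, and no wild type MSL1 library was used here. Both genotypes were raised at 25 °C, and mutant males were picked from a balanced stock by the absence of its GFP marker. There was 1 library for each antibody in a genotype. The error between replicates is therefore unknown, no difference between genotypes or between far and near regions was tested, and all values below describe these 5 libraries. The deposited values are log2 ratios of ChIP to the input of the same genotype at positions 10 bp apart, with coordinates of release 5 of the *D. melanogaster* reference. Libraries of a genotype share their input, and read depth is unknown. Fewer positions on X had a value in *roX* mutants (242018 for MSL1, 296673 for MSL2 and 182016 for MOF) than in wild type (1084010 for MSL2 and 478476 for MOF). This did not hold for MOF on the autosomal arms, where *roX* mutants had more values on each arm (1505297 against 868214 on 2L). For MSL2 they had fewer on each arm, by a smaller margin than on X (1432139 against 1542183 on 2L). The median log2 ratio of all positions on the autosomal arms is given beside the values as the level of each library, and was -0.023, 0.0049 and 0.027 in *roX* mutant MSL1, MSL2 and MOF, against 0.20 for MSL2 and 0.16 for MOF of the wild type. Genes, exons and sequences at the regions were not looked up, since neither annotation nor sequence of release 5 was used here.

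The far regions were on the whole shorter and lower than the near regions, with large overlap. Their median length was 1300 bp (range 210 to 11680 bp), against 1840 bp (250 to 16430 bp) in near regions. The value of a region, the mean of its 5 highest consecutive smoothed log2 ratios, had a median of 2.49 in far regions (range 2.12 to 3.68) and of 2.70 in near regions (2.12 to 3.67). Far regions of 5 kb or more numbered 14 of 253 (5.53%), against 24 of 185 near regions (13.0%), while regions under 500 bp numbered 48 of 253 far and 40 of 185 near regions. Together the far regions covered 454240 bp and the near regions 479240 bp. The MOF values and lengths follow from the rule that chose the regions and are given as a description. Longer regions had higher values in both classes (Spearman's rho across regions 0.86 over 253 far and 0.88 over 185 near regions), and the 2 measures come from the same smoothed values.

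**Figure D1:**
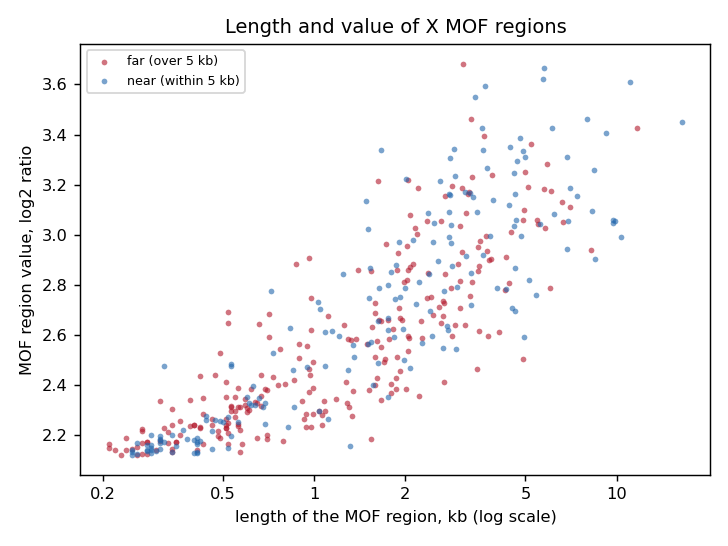
Length of each MOF region on X (x axis, kb, log scale) against its region value (y axis, log2 ratio of ChIP to input) in wild type MOF, with 253 far regions in red and 185 near regions in blue. Far and near regions lie in the same band, and the medians are 1300 bp and 2.49 for far against 1840 bp and 2.70 for near regions.

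Near regions were of 2 kinds, and the far regions lay between them. The 133 near regions that overlapped an MSL1 region had a median length of 2570 bp and a median MOF value of 2.82. The 52 near regions that did not overlap one were the shortest and lowest, with a median length of 625 bp and a median value of 2.32. At the edge of the distance rule, the closest far regions were 10752420 to 10753359 at 5530 bp from an MSL1 region, 15686490 to 15687569 at 5730 bp and 19542030 to 19545069 at 5740 bp, with MOF values of 2.28, 2.34 and 2.71. The near regions just inside 5 kb were 10364730 to 10366479 and 6711500 to 6711749, both at 4990 bp, and 15895430 to 15895829 at 4630 bp, with MOF values of 2.799, 2.14 and 2.18. At the MOF cutoff of 2.12, the lowest far regions were 20299700 to 20299959 with 2.120, 11913250 to 11913479 with 2.121 and 7843280 to 7843549 with 2.125. Some stretches just outside the rule had values as high but were not kept as regions at this cutoff. The highest of those more than 5 kb from MSL1, found when the highest 1.7 percent of the values were taken, were 11502620 to 11503489 with 2.20, 7850790 to 7851339 with 2.19 and 19099580 to 19099889 with 2.16. Their ends were set at the lower cutoff of 2.02, so that their lengths cannot be set beside those of the far regions.

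The far region with the highest MOF value, 1971050 to 1974149, reached 3.68 and lay 48030 bp from the nearest MSL1 region. Its mean log2 ratio was 0.086 for MOF in *roX* mutants, against 3.22 in wild type, and -0.060 for MSL2 in *roX* mutants, against 1.31 in wild type. Both proteins were thus near the autosomal level there in *roX* mutants and far above it in wild type. The region 6185660 to 6188969 followed with a MOF value of 3.46. MOF was at 0.052 in *roX* mutants, against 2.96 in wild type, and MSL2 at 0.029 in *roX* mutants, against 1.23 in wild type. The region 2119960 to 2131639 came next with 3.42 and, with 11680 bp, also the longest far region. MOF was at 0.15 in *roX* mutants, against 2.85 in wild type, and MSL2 at 0.37 in *roX* mutants, against 1.41 in wild type. The region 18547370 to 18551009, with a MOF value of 3.39, kept the most signal among these: MOF had a mean of 0.45 in *roX* mutants, against 2.92 in wild type, and MSL2 one of 0.58 in *roX* mutants, against 1.26 in wild type. It also held the highest *roX* mutant MSL1 smoothed value within 5 kb of any far region, 1.60, which is just under the MSL1 cutoff of 1.63. The fifth, 2627010 to 2632209, had a MOF value of 3.36, with MOF means of 0.15 in *roX* mutants, against 3.04 in wild type, and MSL2 means of 0.13 in *roX* mutants, against 1.36 in wild type. The means of the 2 genotypes rest on unlike positions. In the order given, the MOF means came from 103, 95, 118, 121 and 66 values in *roX* mutants. In wild type they came from 310, 328, 1168, 363 and 514. For MSL2 it was 120, 75, 441, 57 and 100 values, against 299, 302, 1153, 337 and 490 in wild type. The *roX* mutant MSL1 means of these regions, in the same order, were 0.80, 1.02, 0.53, 1.11 and 0.71. They lay above the autosomal arms, at -0.023 in that library. The other long far regions were 19579160 to 19587379, of 8220 bp, and 6162760 to 6169749, of 6990 bp, with MOF values of 2.94 and 3.11.

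Most far regions were far beyond the limit of 5 kb. The median distance was 74560 bp, with quartiles of 24620 and 116280 bp, and 142 of 253 were more than 50 kb away. The farthest was 20391780 to 20395019, at 472640 bp, followed by 20385430 to 20385699 at 466290 bp and 14123860 to 14127649 at 458440 bp. Distances of this size arise in long stretches without an MSL1 region. Neighbouring MSL1 regions were separated by more than 100 kb in 70 places, and these stretches held 236 of the far regions. They also made up most of X, with a summed length of 20386600 bp, where the last wild type MOF value on X was at 22421370. The count is therefore not read as a concentration of far regions in them. A stretch from 2521400 to 3846219 of 1324820 bp was the longest, with 8 far regions in it, and the stretch from 19919140 to 20899619 held the most among the 10 longest, with 15. In 22 of the 70 stretches no far region was found.

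Far regions came in clusters, as near regions did. The nearest other MOF region was a median of 900 bp away for far and 900 bp for near regions, and 161 far regions (63.6%) against 114 near regions (61.6%) had another MOF region within 2 kb. Only 22 far regions (8.70%) and 31 near regions (16.8%) stood more than 20 kb from any other. Taken in order along X, the far regions formed 56 runs that no near region and no MSL1 region interrupted. Runs of 5 or more numbered 17 and held 172 of the 253 far regions. The run from 6120350 to 6194769 was dense: its 12 far regions covered 51.6% of 74420 bp. The run with the most members, from 20102440 to 20395019, had 15 far regions that covered 5.25% of 292580 bp. Along X, the share of far regions among all MOF regions was highest between 8 and 10 Mb, where 41 regions were far and 8 near (83.7%), and among the full steps of 2 Mb lowest between 4 and 6 Mb, where 6 were far and 19 near (24.0%). MSL1 regions numbered 12 between 8 and 10 Mb, where 8.396% of the positions had a *roX* mutant MSL1 value, and 18 between 4 and 6 Mb, where 8.78% had one.

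In wild type, MSL2 was present at nearly all far regions at a level close to that of the near regions. All 253 far regions had MSL2 values. The median of their mean log2 ratios was 1.11 (range 0.46 to 1.46), against 1.15 (0.51 to 1.499) in near regions, 0.31 at positions of X outside MOF regions and 0.20 on the autosomal arms. The difference between the medians of far and near regions was -0.040. It was -0.14 when the highest 3 percent of the MOF values were taken, and 0.14 when only near regions without MSL1 overlap were compared. Every far and every near region lay above the median of the autosomal arms. MSL2-bound regions overlapped 237 of 253 far regions (93.7%) and 169 of 185 near regions (91.4%). Of all smoothed windows of wild type MSL2 on X, 10.7% were at or above its cutoff of 0.85, and outside the MOF regions 4.28% were. A region counts with any overlap, so that its share is not a like measure to a share of windows. Both libraries share the wild type input, and what it adds to this overlap was not tested. The MSL2 level followed the MOF level across the far regions less closely than across the near regions, with Spearman's rho between MOF region value and mean MSL2 log2 ratio of 0.35 over 253 far and 0.60 over 185 near regions. It was 0.57 over the 133 near regions that overlapped an MSL1 region and 0.13 over the 52 that did not. The looser relation is thus not particular to far regions. The differences in rho were not tested.

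The highest wild type MSL2 means among far regions were 1.46 at 3754300 to 3755929, 1.45 at 6134950 to 6140729 and 1.41 at the longest far region. The 16 far regions without an MSL2 region were between 230 and 1620 bp long, with MOF values of at most 2.57 and MSL2 means of at most 0.83. They include the 3 lowest MSL2 means, 0.46 at 9148460 to 9148699, 0.60 at 8038520 to 8038799 and 0.62 at 11913250 to 11913479. These 3 were between 230 and 280 bp long, and each still lay above the autosomal level of 0.20. When MOF regions on X were divided into 3 equal classes by MOF value, the median MSL2 mean was 1.01 in far against 0.96 in near regions in the lowest class, 1.11 against 1.06 in the middle class and 1.19 against 1.24 in the highest class. Far regions were thus above near regions in the lower 2 and below them in the highest.

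Values in *roX* mutants were present for a smaller share of the far than of the near regions. At least 5 values of *roX* mutant MOF were found in 121 far regions (47.8%), against 162 near regions (87.6%). For *roX* mutant MSL2 it was 185 far regions (73.1%), against 160 near regions (86.5%), and for *roX* mutant MSL1 185 far regions (73.1%), against 184 near regions (99.5%). The MSL1 shares are tied to the distance rule, since a near region needs a called MSL1 region on it or close by. All 3 libraries had values in 111 far regions (43.9%), against 150 near regions (81.1%), and none of them in 40 far regions (15.8%), against 1 near region. Of the 52 near regions without MSL1 overlap, 29 (55.8%) had values for MOF, 34 (65.4%) for MSL2 and 51 (98.1%) for MSL1. All 3 libraries had values in 24 of these 52 (46.2%), so that the share for MSL2 was lower than in far regions. Within the far regions, 39.6% of the positions had a value for MSL1, 23.6% for MSL2 and 13.7% for MOF in *roX* mutants, while the wild type shares were 95.3% (MSL2) and 99.2% (MOF). In near regions the *roX* mutant shares were 87.5%, 47.9% and 57.4%. The wild type MOF share follows in part from calling the regions in that library. In full steps of 2 Mb along X, *roX* mutant MSL1 had values at 6.72% to 16.8% of the positions. Far regions were thus better covered in *roX* mutant MSL1 than X at large. The share over all of X was not computed for *roX* mutant MSL2 and MOF. The far regions with *roX* mutant MOF values were longer and higher in wild type than those without. Their median length was 2130 bp against 705 bp, their median MOF value 2.66 against 2.34 and their median wild type MSL2 mean 1.14 against 1.08. The *roX* mutant MOF values below therefore describe the larger far regions.

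**Figure D2:**
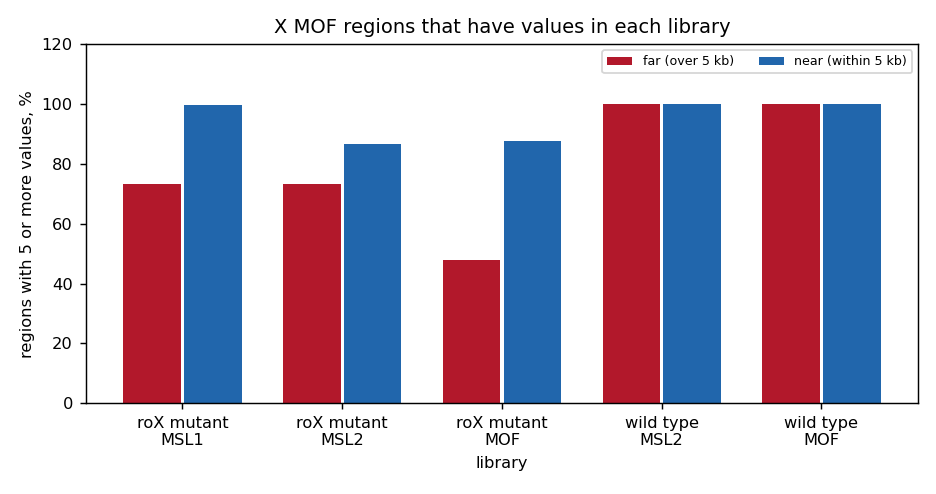
Percent of the 253 far (red) and 185 near (blue) MOF regions on X that hold 5 or more deposited values in each library (1 library each). In wild type both classes are at 100%, while in *roX* mutants the far regions are at 73.1% for MSL1, 73.1% for MSL2 and 47.8% for MOF, and the near regions between 86.5% and 99.5%. The wild type MOF share is fixed by the calling of the regions, and the near MSL1 share is tied to the distance rule.

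The distance rule can only use MSL1 regions that could be called. Within 5 kb of 232 far regions (91.7%) there was at least 1 smoothed window of *roX* mutant MSL1, and all of these were under the MSL1 cutoff of 1.63. The highest smoothed value within 5 kb had a median of 0.88 over these 232 regions and reached over 1 in 89 of them. For 21 far regions there was no such window. A smoothed MSL1 window in the region itself was present in 156 of the 253 far regions, and 62 held no MSL1 value, so that binding of MSL1 could not be judged at many of them. In the far regions themselves, the mean *roX* mutant MSL1 log2 ratio had a median of 0.53 over 185 regions (range -0.41 to 1.33). This is close to the median of the 182114 positions on X outside MOF regions that had a value, 0.53, and above the autosomal arms at -0.023. Of the 185 far regions, 181 (97.8%) lay above the autosomal arms, as did all 184 near regions with a value.

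MOF at the far regions was low in *roX* mutants. Over the 121 far regions with values the median of the mean log2 ratio was 0.12 (range -0.52 to 0.65), against 0.53 (-0.66 to 1.88) over 162 near regions. The difference between far and near was -0.41, and it was -0.011 when only the near regions without MSL1 overlap were compared. The far median lay between the autosomal arms, at 0.027, and X outside MOF regions, at 0.20 over the 148278 positions there with a value. These 2 levels are medians over positions, while the far median is one over region means. Above the autosomal level were 79 of the 121 far regions (65.3%), against 152 of 162 near regions (93.8%). No far region overlapped a MOF region of *roX* mutants, while 72 near regions did. A smoothed window of this library was present in only 80 far regions, so that the count is 0 of 80, against 72 of 149 near regions with such a window. Among these near regions it was 71 of 130 that overlapped an MSL1 region and 1 of 19 that did not. Of all smoothed windows on X in *roX* mutant MOF, 11.2% were at or above the cutoff of 0.81, and outside the wild type MOF regions 2.89% were. These shares count windows and not regions. At positions with a value in both genotypes, the far regions had a median MOF log2 ratio of 0.12 in *roX* mutants, against 2.43 in wild type, and the near regions 0.53 in *roX* mutants, against 2.51 in wild type. The median of the differences between *roX* mutants and wild type, each taken relative to its autosomal arms, was -2.27 over 121 far regions and -1.83 over 162 near regions, and each of these regions was lower in *roX* mutants. The regions were selected as high in wild type MOF, so that these differences are a description only.

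Among far regions with values, *roX* mutant MOF was highest at 4255710 to 4256039, a region of 330 bp, with a mean of 0.65 in *roX* mutants, against 2.24 in wild type. It was followed by 5510640 to 5512839 with 0.54, from 6 values, and 17084790 to 17087789 with 0.52. The first of these lay 174570 bp from any other MOF region. The lowest were 11468470 to 11470499 with -0.52, 13513810 to 13515739 with -0.51, from 12 values, and 8032970 to 8034949 with -0.50, from 9 values. These 3 had MOF values of 2.82, 2.46 and 2.81 in wild type, close to or above the far median. Across 121 far regions, the wild type MOF value and the *roX* mutant MOF mean had a Spearman's rho of 0.26.

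MSL2 at the far regions was also low in *roX* mutants, and here the far and near regions were closer. The median of the mean log2 ratio was 0.18 (range -0.52 to 0.64) over 185 far regions, against 0.31 (-0.28 to 0.80) over 160 near regions, a difference of -0.13. Against the near regions without MSL1 overlap the difference was 0.018, in the other direction. The 263010 positions of X outside MOF regions with a value had a median of 0.22 and the autosomal arms 0.0049. Above the autosomal level were 161 of 185 far regions (87.0%) and 150 of 160 near regions (93.8%). At positions with a value in both genotypes, the median MSL2 log2 ratio of the far regions was 0.18 in *roX* mutants, against 1.14 in wild type. For near regions it was 0.31 in *roX* mutants, against 1.23 in wild type. Relative to the autosomal arms, the median of the differences was -0.75 over 185 far and -0.72 over 160 near regions, and 184 far and 158 near regions were lower in *roX* mutants. Wild type MSL2 was not used to choose the regions, but shares its input with wild type MOF, which was.

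MSL2 regions of *roX* mutants overlapped 4 of the 138 far regions in which a smoothed window was present (2.90%), against 52 of 150 near regions. Among these near regions it was 51 of 122 that overlapped an MSL1 region and 1 of 28 (3.57%) that did not. Of all smoothed windows on X in this library, 4.9% were at or above the cutoff of 0.60, and outside the wild type MOF regions 3.23%. These are shares of windows, while the overlaps count whole regions with any overlap, so that they are not like measures. The 4 far regions, named after their values were seen, were 2609300 to 2614199, 18547370 to 18551009, 18779000 to 18784869 and 19579160 to 19587379. They were between 3640 and 8220 bp long, with MOF values from 2.94 to 3.39, and the overlaps covered 280 to 400 bp. The *roX* mutant libraries share an input with the MSL1 library that set the distance rule, and its part in their values at far regions was not tested. Across the far regions, the *roX* mutant MSL1 means went with those of MOF (Spearman's rho 0.42 over 115 regions) and less with those of MSL2 (0.18 over 159 regions).

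**Figure D3:**
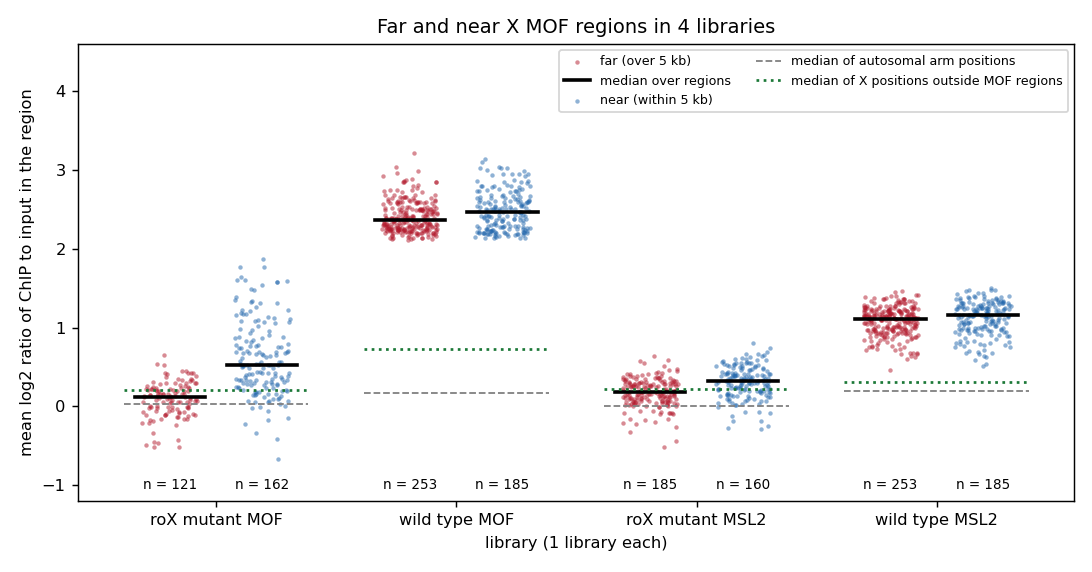
Mean log2 ratio of ChIP to input in each MOF region on X (points; far in red, near in blue) in *roX* mutant and wild type MOF and MSL2 (1 library each), with the median over regions (black bar) and the medians of the autosomal arms (dashed grey) and of X outside MOF regions (dotted green). The grey and green lines are medians over positions with a value. In *roX* mutant MOF the median over regions is 0.12 for far against 0.53 for near regions, while in wild type MSL2 it is 1.11 for far against 1.15 for near regions.

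The median *roX* mutant MOF and MSL2 values were highest in MOF regions that overlapped an MSL1 region. In *roX* mutant MOF, the median was 0.67 over 133 regions that overlapped an MSL1 region and 0.13 over 29 regions that lay within 5 kb without overlap. It was 0.21 over 8 regions at 5 to 10 kb, 0.14 over 16 at 10 to 20 kb, 0.13 over 28 at 20 to 50 kb and 0.082 over 69 beyond 50 kb. For *roX* mutant MSL2 the medians in the same order were 0.34, 0.16, 0.18, 0.18, 0.19 and 0.18, over 126, 34, 11, 29, 41 and 104 regions. Regions next to, but not on, an MSL1 region thus had *roX* mutant medians close to those of regions beyond 50 kb. Wild type MSL2 had medians of 1.21, 0.97, 1.03, 1.09, 1.11 and 1.13 in these classes, so that it was lowest beside the MSL1 regions and higher with distance. The MOF values had medians of 2.82, 2.32, 2.44, 2.42, 2.39 and 2.58, also lowest beside the MSL1 regions but with no steady order beyond 5 kb. Among far regions alone, distance and wild type MSL2 mean had a Spearman's rho of 0.14, and distance and *roX* mutant MOF mean one of -0.084.

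**Figure D4:**
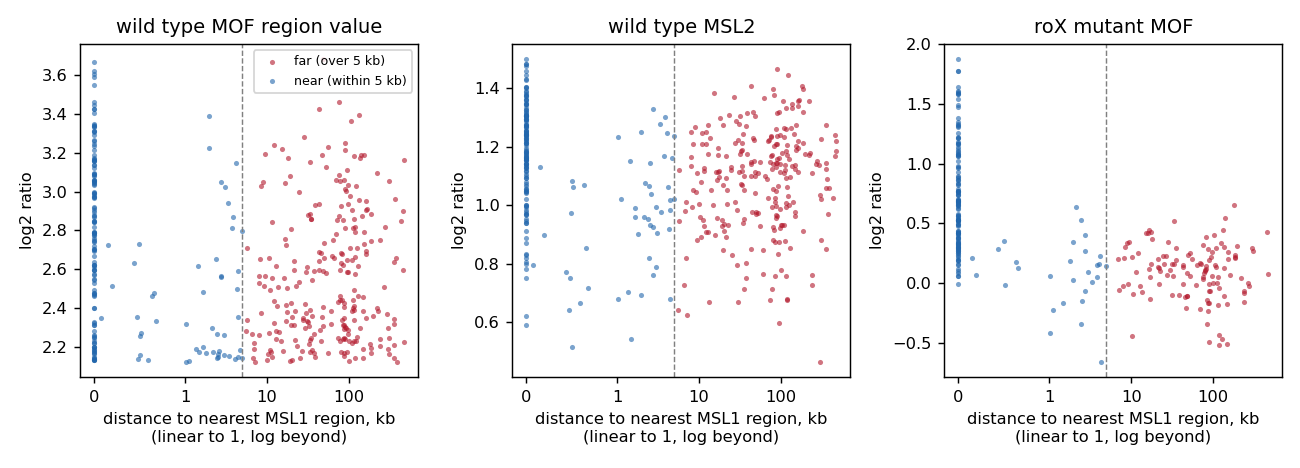
Distance of each MOF region on X from the nearest *roX* mutant MSL1 region (x axis, kb, linear to 1 kb and logarithmic beyond, dashed line at 5 kb) against its wild type MOF region value, wild type MSL2 mean and *roX* mutant MOF mean (y axes, log2 ratio), with far regions in red and near regions in blue. *roX* mutant MOF reaches 1.88 at distance 0 and at most 0.65 in far regions, and wild type MSL2 values span 0.46 to 1.46 across the far regions.

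Within each of the 3 classes of MOF value, the *roX* mutant MOF median was lower in far than in near regions. It was 0.054 over 24 far against 0.41 over 41 near regions in the lowest class, 0.082 over 47 far against 0.65 over 44 near in the middle class and 0.18 over 50 far against 0.62 over 77 near in the highest class. When only regions with a *roX* mutant MOF value at 50% of their positions or more were taken, 18 far regions had a median of 0.16 and 116 near regions a median of 0.70. The corresponding subset for *roX* mutant MSL2 had medians of 0.16 over 32 far and 0.37 over 86 near regions. Most near regions in these comparisons overlapped an MSL1 region: 133 of the 162 with a *roX* mutant MOF value, 107 of the 116 and 80 of the 86. The 2 kinds of near regions were not separated here.

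Profiles of MOF and MSL2 over 10 kb on either side of the region centres showed a peak in wild type at both classes, and in *roX* mutants a peak at near but none at far regions. *roX* mutant MSL1, whose values set the distance rule, was slightly higher at the centre of far regions, with a median above the arms of 0.63 just right of the centre and 0.49 at 9.75 kb to the right. Relative to the autosomal arms, the median *roX* mutant MOF log2 ratio just right of the centre was 0.092 at far and 0.56 at near regions, and at 9.75 kb to the right it was 0.13 at far and 0.13 at near regions. For wild type MSL2 the medians just right of the centre were 0.92 at far and 1.00 at near regions and at 9.75 kb 0.23 and 0.17. The centre was set by wild type MOF, where these values were 2.24 and 2.43 at the centre and 0.91 and 0.56 at 9.75 kb. The flanks of far regions were thus higher in wild type MOF than those of near regions. Neighbouring regions share parts of these windows, and in *roX* mutant MOF each step rests on 50 to 103 of the far regions.

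**Figure D5:**
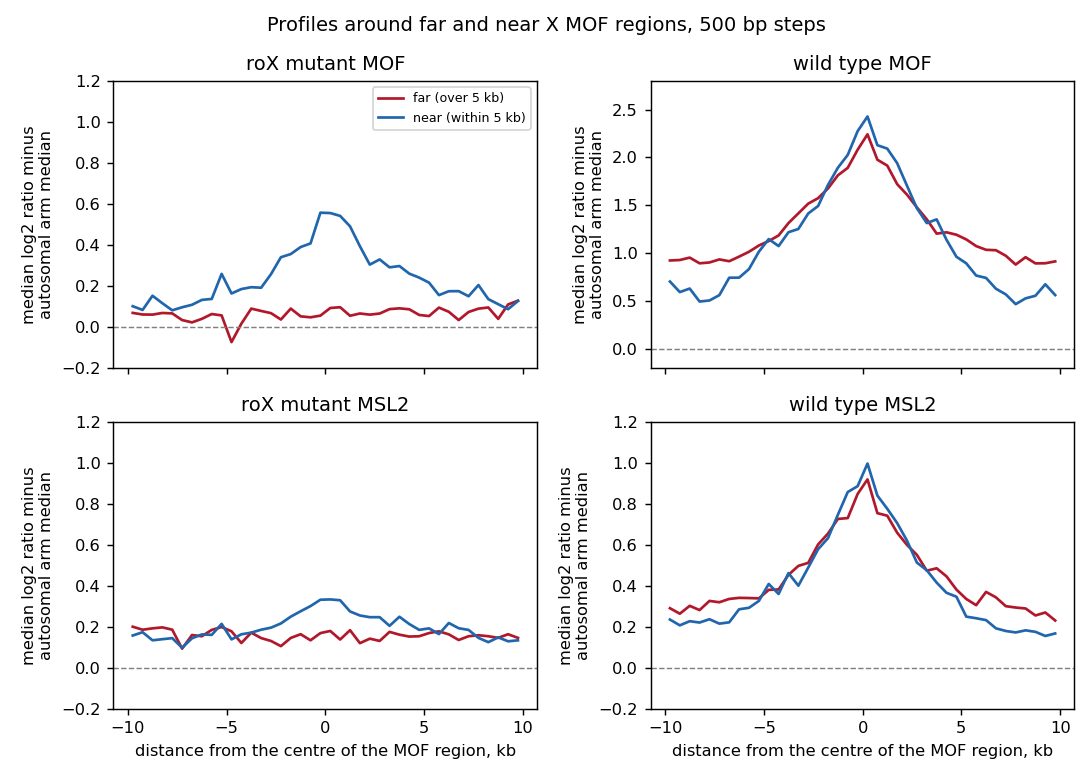
Median log2 ratio minus the autosomal arm median (y axes, which differ for wild type MOF) in steps of 500 bp from 10 kb left to 10 kb right of the centre of the far (red) and near (blue) MOF regions, in *roX* mutant and wild type MOF and MSL2. The *roX* mutant MOF line stays between -0.075 and 0.13 at far regions and reaches 0.56 at near regions, while both lines peak in wild type.

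Some far regions had *roX* mutant ratios below the autosomal arms, and those given here were singled out after their values were seen. Of 111 far regions with values in all 3 *roX* mutant libraries, 3 were below the autosomal arms in each of them, against 0 of 150 near regions. They were 11458100 to 11461569, 11468470 to 11470499 and 11470970 to 11472589. The far region between the first and the second of them, 11462090 to 11463069, was above the autosomal arms, with *roX* mutant means of 0.31 for MSL1 and 0.32 for MSL2, and had 1 MOF value. The *roX* mutant MSL1 means of the 3 low regions were -0.41, -0.40 and -0.35. In wild type their MOF values were 2.46, 2.82 and 2.57, and their MSL2 means 1.10, 0.68 and 0.67. The *roX* mutant libraries share an input, and its part in these low ratios was not tested.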

How the data were processed

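The authors aligned uniquely mapped SOLiD reads of D. melanogaster to release 5 of the reference with Bioscope v1.2.1 and deposited log2 enrichment ratios (ChIP over input) every 10 bp. The scaling of ChIP to input and the rule for positions without a value are not given in the sources used here, and read depth is unknown. From these deposited log2 ratios, medians of 500 bp windows with at least 25 values were taken at every 10 bp, the highest 1.5 percent over all chromosomes and scaffolds of a library were kept, neighbouring units were merged across gaps of at most 200 bp, and stretches of 200 bp or more with at least 5 units were retained. Distance is the gap between region edges. The value of another library in a region is the mean of its deposited log2 ratios, where at least 5 were present.

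Named regions are the 5 far regions with the highest MOF value, the 3 longest, the 3 farthest, the 3 highest and lowest in wild type MSL2 and in *roX* mutant MOF, and the 3 on each side of the thresholds. Members, rule and lists were chosen with earlier results of these data known. Region calling was tested on simulated data with planted regions. The D. simulans libraries were not analysed here. Python 3.11.15, numpy 2.4.6, pandas 2.3.3, scipy 1.17.1 and matplotlib 3.10.9 were used.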

Additional observations from a re-analysis of the deposited data

How the results depend on the processing

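Each result was recomputed with other cutoffs, smoothing, gaps, lengths, distances and minimum numbers of values, and was called close to the reported value when it stayed within 1.5 times of a count, or within the exact 95% binomial interval of a share or of the far median, both of which treat regions as independent. The number of far regions was 155 with 2000 bp smoothing, against 253, and stayed within 1.5 times under the 12 other settings. In *roX* mutant MOF the far regions were below the near regions in all 16 settings. With the wild type MOF cutoff at the highest 1 percent, far minus near was -0.073 for wild type MSL2, -0.49 for *roX* mutant MOF and -0.17 for *roX* mutant MSL2, and 96.5% of the far regions overlapped an MSL2 region. At the highest 3 percent these values were -0.14, -0.31, -0.10 and 70.8%, and 66.6% of the MOF regions were far. With the *roX* mutant MSL1 cutoff at the highest 1 percent, 66.7% were far and the *roX* mutant MOF difference was -0.53. At the highest 3 percent, 42.2% were far, 38.4% of them had *roX* mutant MOF values, and the differences were -0.30 for *roX* mutant MOF and -0.092 for *roX* mutant MSL2. With 2000 bp smoothing, 64.6% were far, 99.4% of them overlapped an MSL2 region, 66.5% had *roX* mutant MOF values, and the differences were -0.091 for wild type MSL2, -0.60 for *roX* mutant MOF and -0.18 for *roX* mutant MSL2. With a minimum length of 500 bp they were -0.069 for wild type MSL2 and -0.54 for *roX* mutant MOF. With a distance of 2 kb, 63.9% were far. With medians of smoothed values the *roX* mutant MSL2 difference was -0.17. The MSL2 overlap was 87.7% when 50% of the region had to be covered and 98.8% with the MSL2 cutoff at the highest 3 percent, and 54.5% of far regions had at least 1 *roX* mutant MOF value. Against near regions that overlap no MSL1 region, a comparison added after the data were seen, the differences turned to 0.14 for wild type MSL2 and 0.018 for *roX* mutant MSL2, and that of *roX* mutant MOF was -0.011. No paired analysis was possible because each antibody and genotype has 1 library. The cause of these shifts was not tested, and missing values in *roX* mutants limit what can be said of the far regions there.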
